A study of Homo sapiens with 6 samples.

Results

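The SOX family was examined by RNA-Seq of 6 libraries from AN3CA, a human cell line established from an endometrial cancer. The family was taken as 10 genes chosen by name (*SOX2*, *SOX4*, *SOX5*, *SOX6*, *SOX8*, *SOX9*, *SOX11*, *SOX12*, *SOX13* and *SOX17*), of 17471 genes in the table. Of these, 8 were listed. *SOX5* and *SOX17* were not analysed here. Cells carried either an empty hairpin vector (shEV, genotype WT, 3 libraries) or a vector with 1 hairpin against *PAX2* (shPAX2, genotype PAX2 KD, 3 libraries), and both populations had been selected with puromycin. A scrambled hairpin is named as the AN3CA control in another passage of the study. Replicates are numbered, but no label says that they came from separate cultures, so the p-values measure the spread between these libraries, which may be technical. With a single hairpin, effects of *PAX2* loss and of the hairpin itself cannot be told apart.

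SOX proteins are transcription factors that bind DNA through an HMG box, a domain also found in SRY, the testis-determining factor. They bend the DNA they bind. They fall into groups by sequence. *SOX2* belongs to group B1, which maintains stem and neural progenitor cells. *SOX4*, *SOX11* and *SOX12* form group C, *SOX5*, *SOX6* and *SOX13* group D, *SOX8* and *SOX9* group E, and *SOX17* and *SOX18* group F. SOX proteins usually act with partner factors, and in the uterus *SOX9* and *SOX17* are known as regulators of the endometrial glands.

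Levels are given as TPM, the share of a library's transcripts after division by gene length, on which genes can be compared. Whole reads were recovered from the TPM values, and the libraries held 10730909 to 18221859 reads in shEV and 19422615 to 29405787 in shPAX2, so every shPAX2 library was the deeper. *PAX2* itself stood at 4.03, 3.66 and 2.74 TPM in shEV and at 0.916, 0.723 and 1.17 TPM in shPAX2. Its groups did not overlap, and the log2 fold change was -1.47 (SE 0.18, adjusted p 0.000294 in limma). The label calls the cells epithelial, yet no library held more than 6 reads of *EPCAM*, *KRT7*, *KRT8*, *KRT19* or *CDH1*. *KRT18* reached 10.2 to 17.5 TPM and *VIM*, which encodes the mesenchymal filament vimentin, 3750 to 4410 TPM. Among the other mesenchymal or stromal markers listed, *COL1A2* (360 to 855 TPM) and *ACTA2* (58.9 to 355 TPM) were also abundant. *CDH2*, *THY1*, *PDGFRA* and *FN1* stayed at or below 0.827 TPM, and *COL1A1* and *PDGFRB* at or below 1.48 TPM.

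Promoter sequences are shown first for members whose levels are compared below. *SOX6*, *SOX12* and *SOX13* were lower in shPAX2, and *SOX4* did not pass the test. RefSeq windows were matched for 5 of the 8 listed members (*SOX2*, *SOX4*, *SOX6*, *SOX12* and *SOX13*). *SOX8*, *SOX9* and *SOX11* are named only. Each window is the 250 bases before the annotated start, on the strand of the gene, with GRCh38.p14 coordinates, which differ from the hg19 coordinates given elsewhere. *SOX6* has 5 annotated starts, of which the most upstream is printed. Capitals mark matches on either strand to GTCACG (a short core of the PAX2 site), ACAAAG or ACAATG (SOX cores, the first shared with TCF factors), CCAAT, or the octamer ATTTGCAT bound by POU factors.
SOX4, chr6:21593501-21593750, plus strand: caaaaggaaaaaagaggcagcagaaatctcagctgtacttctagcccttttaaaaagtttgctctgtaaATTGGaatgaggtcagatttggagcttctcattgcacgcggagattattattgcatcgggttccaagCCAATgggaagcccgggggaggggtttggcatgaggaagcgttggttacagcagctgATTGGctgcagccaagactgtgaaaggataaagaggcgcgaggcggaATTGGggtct
SOX6, chr11:16738478-16738727, minus strand: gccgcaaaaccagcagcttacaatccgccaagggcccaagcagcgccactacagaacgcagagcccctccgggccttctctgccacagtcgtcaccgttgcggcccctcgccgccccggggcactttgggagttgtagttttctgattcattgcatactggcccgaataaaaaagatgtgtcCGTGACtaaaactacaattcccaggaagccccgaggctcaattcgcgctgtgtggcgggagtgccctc
SOX12, chr20:325302-325551, plus strand: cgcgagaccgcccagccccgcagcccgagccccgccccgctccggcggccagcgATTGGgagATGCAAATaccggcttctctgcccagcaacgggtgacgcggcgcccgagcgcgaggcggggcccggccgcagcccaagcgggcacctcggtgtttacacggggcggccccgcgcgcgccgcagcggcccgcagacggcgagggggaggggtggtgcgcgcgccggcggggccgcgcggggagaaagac
SOX13, chr1:204072865-204073114, plus strand: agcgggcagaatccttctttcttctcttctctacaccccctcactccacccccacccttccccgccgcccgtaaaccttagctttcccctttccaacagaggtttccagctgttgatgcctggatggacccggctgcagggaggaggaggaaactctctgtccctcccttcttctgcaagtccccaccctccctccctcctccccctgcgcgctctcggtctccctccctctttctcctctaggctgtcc

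The 4 windows differed in base composition. That of *SOX12* was 79.2% G and C with a CpG observed over expected ratio of 1.07, against medians of 58.0% and 0.56 over 35116 RefSeq windows. Those of *SOX13* and *SOX6* held 60.8% and 58.8%, and that of *SOX4* 48.8%. The printed *SOX6* window held 1 match to GTCACG, which occurs in 7.93% of all windows. The windows of the other *SOX6* starts held no GTCACG. The *SOX4*, *SOX12* and *SOX13* windows held none. The *SOX12* window held the octamer, found in 1.63% of all windows, and 1 CCAAT match. *SOX4* had 4 CCAAT matches, a motif found in 32.0% of windows. The printed windows held no ACAAAG (13.7% of all windows) or ACAATG (9.29%). Among the windows not printed, that of *SOX2* held ACAAAG, and some of those of *SOX6* held ACAAAG or ACAATG. A match is a description of the letters and does not show binding.

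The order of the levels was examined next. *SOX4* was the most abundant, followed by *SOX9* and *SOX12*, and their ranges did not overlap in either group. In shEV, *SOX8* came next at 7.64 to 8.32 TPM, above *SOX6* (6.04 to 6.92 TPM) and *SOX13* (5.81 to 7.42 TPM), which overlapped each other. In shPAX2 the ranges of *SOX6*, *SOX8* and *SOX13* ran from 3.09 to 4.31 TPM, with each overlapping its neighbour in the order. *SOX4* and *SOX9* together supplied 88.6% to 90.2% of the summed TPM of the 8 listed members in shEV and 91.9% to 92.6% in shPAX2.

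**Figure D1:**
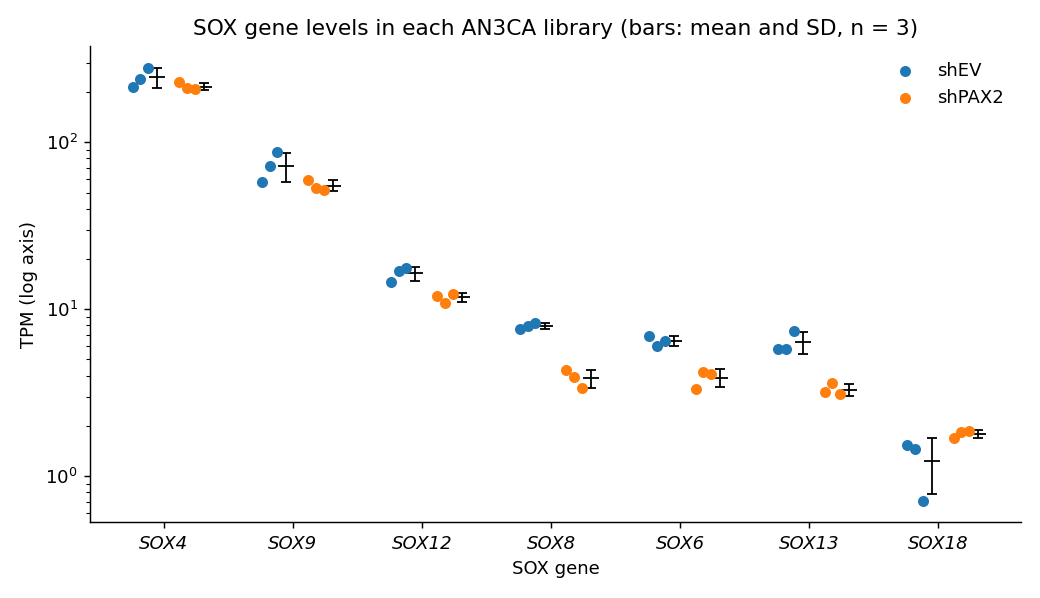
TPM (log axis) of the 6 tested SOX members and *SOX18* in each library, 3 shEV (blue) and 3 shPAX2 (orange), with the mean and SD of each group as black bars. The shPAX2 points lie below all shEV points for *SOX12*, *SOX8*, *SOX6* and *SOX13*, the groups overlap for *SOX4* and *SOX9*, and *SOX18* lies above.

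Of the 8 listed members, 6 passed the filter on low values (0.5 TPM or more in 3 or more of the libraries), and all 6 had a log2 fold change below 0, as they did in each of 15 alternative fits. At an adjusted p under 0.05 in limma, 4 were lower in shPAX2 (*SOX6*, *SOX8*, *SOX12* and *SOX13*) and 0 were higher. In the whole table, 30.5% of the 13163 genes tested were lower and 12.2% higher by the same rule. The median log2 fold change of the 6 members was -0.57, against -0.10 over all genes tested. None of the 6 also reached an absolute log2 fold change of 1, a pair of thresholds passed by 4.54% of all genes. With voom on the recovered reads 1 of the 6 (*SOX8*) passed both thresholds. The groups did not overlap for 4 of the 6 members, while 39.0% of all genes tested were lower without overlap. RNA from whole cultures does not tell fewer expressing cells from less RNA per cell.

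*SOX8* showed the largest fold change of the members. This group E gene (chromosome 16, 1031770 to 1036979, hg19, plus strand, 3 exons) acts with *SOX9* in testis, neural crest and glia. It stood at 7.64, 7.90 and 8.32 TPM in shEV and at 4.31, 3.94 and 3.36 TPM in shPAX2, from 100 to 229 reads per library. The highest shPAX2 library was thus well below the lowest shEV library. The shPAX2 mean of 3.87 ± 0.477 TPM was 48.7% of the shEV mean of 7.95 ± 0.343 TPM (SD, n = 3 each). The log2 fold change was -0.96 (SE 0.11, adjusted p 0.000185 in limma), with a 95% interval from -1.20 to -0.71. This value fell just short of the fold threshold, and passed it at -1.03 with a pseudocount of 0.1 or without shPAX2 replicate 1 and at -1.01 with voom.

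The other group E member, *SOX9* (chromosome 17, 70117161 to 70122557, hg19, plus strand, 3 exons), directs cartilage and testis formation and marks progenitor cells of many epithelia. It stood at 57.5, 72.0 and 86.9 TPM in shEV and at 59.7, 52.9 and 52.0 TPM in shPAX2. The groups overlapped, since shEV replicate 1 lay below shPAX2 replicate 1. The means were 72.1 ± 14.7 and 54.9 ± 4.20 TPM (SD, n = 3 each), and the log2 fold change of -0.37 (SE 0.15) had an adjusted p of 0.0825 in limma. The shEV libraries varied by 20.4% of their mean, where counting error at the lowest read number was 2.87%. Without shEV replicate 1, the shallowest library, the value was -0.53 with an adjusted p of 0.00494 in limma (range over all alternatives 0.00494 to 0.224). Without shEV replicate 3, the highest library, it was -0.23 (adjusted p 0.138 in limma). An antisense gene, *SOX9-AS1*, overlaps *SOX9* in the annotation and was not analysed here.

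Both group D members that were tested were lower in shPAX2. *SOX13* (chromosome 1, 204042243 to 204096871, hg19, plus strand), first known as a diabetes autoantigen and active in gamma delta T cells, stood at 5.81, 5.81 and 7.42 TPM in shEV and at 3.19, 3.62 and 3.09 TPM in shPAX2. No shPAX2 library reached the shEV range, and the shPAX2 mean was 52.1% of the shEV mean. Its log2 fold change was -0.84 (SE 0.12, adjusted p 0.000821 in limma). *SOX6* (chromosome 11, 15987995 to 16761138, hg19, minus strand, 16 exons) acts in cartilage, muscle and red blood cell formation. It stood at 6.92, 6.04 and 6.48 TPM in shEV and at 3.34, 4.23 and 4.10 TPM in shPAX2, again without overlap. The shPAX2 mean was 60.0% of the shEV mean, a log2 fold change of -0.67 (SE 0.11, adjusted p 0.0017 in limma). Under quantile normalization it was -0.44 (adjusted p 0.0184 in limma).

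*SOX6* spans a long locus and overlaps *C11orf58* on the opposite strand. The kit marks strand, but the strand setting of the counting is not given in the sources used here. *C11orf58* averaged 93.8 ± 5.34 TPM in the shEV libraries against 93.7 ± 2.72 TPM in the shPAX2 libraries (n = 3 each, SD), and its share in the *SOX6* reads was not tested. Gene lengths implied by the ratio of reads to TPM were scaled by the median of their ratios to the canonical lengths. This median was taken over the listed members, *SOX15*, *SOX18* and *PAX2*, so the lengths are not an independent measure. The implied length was 9363 bases for *SOX6*, against 9304 in its canonical transcript. For *SOX13* the lengths were 4073 and 4076 bases, and for *SOX4* 4878 and 4869. Others were less close, with 1705 and 1862 bases for *SOX18*.

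Group C held both the most abundant member and one at the limit of detection. *SOX12* (chromosome 20, 306196 to 310868, hg19, plus strand, 1 exon) stood at 14.6, 17.0 and 17.6 TPM in shEV and at 12.0, 10.9 and 12.3 TPM in shPAX2. The groups did not overlap, and the shPAX2 mean was 71.8% of the shEV mean. Its log2 fold change was -0.46 (SE 0.09, adjusted p 0.00333 in limma), the smallest of the 4 that passed, and under quantile normalization it was -0.29 (adjusted p 0.0366 in limma). *NRSN2-AS1* overlaps *SOX12* on the opposite strand. *SOX11*, an embryonic neural factor, had at most 1 read in a library. *SOX2* had 1 read in 1 library, the number that the recovery gives to any gene seen in only 1 library. At that number its implied length, 2512 bases, equalled its canonical length. For *SOX11* and *SOX2*, 3 reads would amount to at most 0.0641 and 0.222 TPM, and a difference could not be detected with so few reads.

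*SOX4* (chromosome 6, 21593982 to 21598850, hg19, plus strand, 1 exon), a regulator of progenitor survival that is often abundant in carcinomas, stood at 215, 239 and 280 TPM in shEV. In shPAX2 it stood at 228, 210 and 209 TPM, from 9930 to 17013 reads, so the groups overlapped. The means were 245 ± 33.0 and 215 ± 10.8 TPM (SD, n = 3 each), the log2 fold change was -0.18 (SE 0.09) and the adjusted p 0.157 in limma. The 95% interval ran from -0.39 to 0.03. Without shEV replicate 1 the value was -0.27 with an adjusted p of 0.0407 in limma (0.0407 to 0.606 over all alternatives). It was -0.08 without shEV replicate 3 (adjusted p 0.476 in limma) and -0.06 under median-of-ratios scaling (adjusted p 0.606 in limma).

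*SOX4* was also set against its chromosome, whose genes were shifted upward in shPAX2. The other 633 chromosome 6 genes tested had a median log2 fold change of 0.39, and the 12003 tested genes placed elsewhere -0.11. *SOX4* differed from the median of its chromosome by -0.57, and 10.6% of the chromosome 6 genes had a lower value. Among genes elsewhere 41.6% had a lower value than *SOX4*. The nearest tested gene before it, *CDKAL1*, which encodes a tRNA-modifying enzyme, stood at 23.4 ± 0.620 TPM in shEV and rose to 33.1 ± 1.04 TPM (n = 3 each, SD). Its log2 fold change was 0.49 (adjusted p 0.000267 in limma). The nearest after it, the noncoding gene *LINC00340*, had 0.14 (adjusted p 0.189 in limma). Against the 50 tested genes within 5 Mb, with a median of 0.19, the difference of *SOX4* was -0.37. These differences carry no test.

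**Figure D2:**
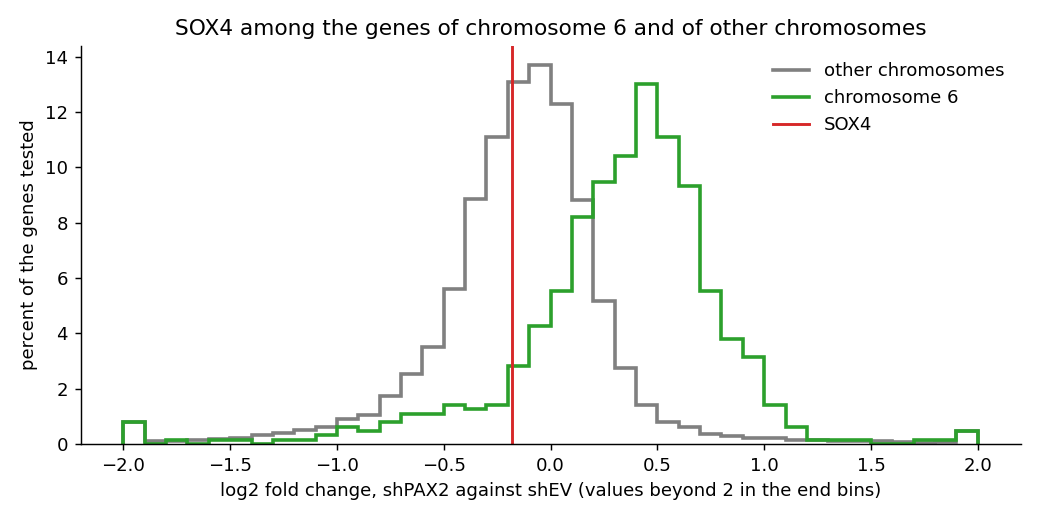
Percent of tested genes (vertical axis) by log2 fold change of shPAX2 against shEV (horizontal axis, bins of 0.1) for 633 chromosome 6 genes (green) and 12003 genes elsewhere (grey), with *SOX4* as a red line. *SOX4*, at -0.18, lies left of the chromosome 6 median of 0.39 and near the median elsewhere of -0.11.

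For the other members, the medians of their own chromosomes were close to that of all genes (-0.10 to -0.06). Relative to these the log2 fold changes were -0.90 for *SOX8*, -0.75 for *SOX13*, -0.58 for *SOX6*, -0.40 for *SOX12* and -0.31 for *SOX9*. Median-of-ratios scaling moved the median of all genes from -0.10 to 0.0053. Relative to the median of all genes on the TPM scale, the log2 fold changes were -0.85 for *SOX8*, -0.74 for *SOX13*, -0.57 for *SOX6* and -0.36 for *SOX12*. They were -0.27 for *SOX9* and -0.07 for *SOX4*.

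**Figure D3:**
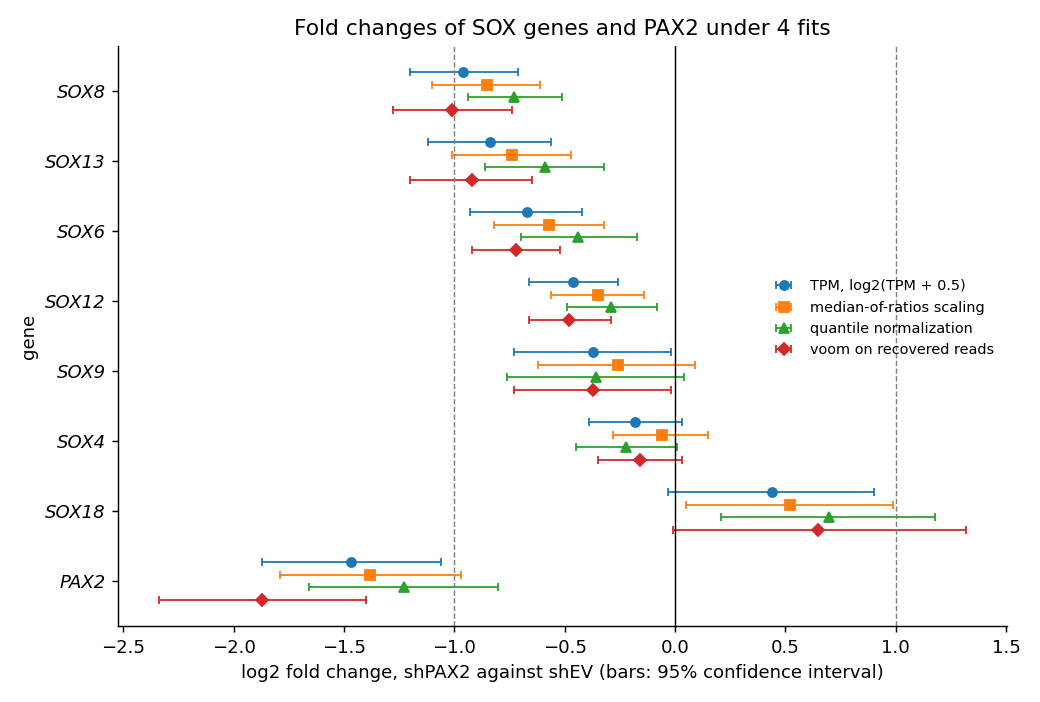
Log2 fold change of shPAX2 against shEV (horizontal axis) with 95% confidence intervals for 6 SOX members, *SOX18* and *PAX2*, under 4 fits of the same 6 libraries, with dashed lines at -1 and 1. The intervals of *SOX8*, *SOX13*, *SOX6* and *SOX12* lie below 0 in each of these fits, and the interval of *SOX4* includes 0 in each.

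The makeup of the family shifted with these differences. *SOX4* supplied 69.9%, 68.8% and 68.9% of the summed TPM of the listed members in shEV and 73.4%, 73.5% and 73.6% in shPAX2. Every shPAX2 library lay above every shEV library, by 4.32 percentage points on average, and the two-sided exact permutation p was 0.1, the smallest that 3 against 3 libraries allow. The shares of *SOX8*, *SOX6* and *SOX13* were lower in each shPAX2 library than in any shEV library. These members were already described as lower without overlap, and shares of the same total depend on each other. The shift in shares, that of *SOX4* included, is thus a description, and its permutation p adds no separate support. The summed TPM was 354 ± 50.1 in shEV and 293 ± 15.0 in shPAX2 (SD, n = 3 each), and the groups overlapped (exact permutation p = 0.2). Without *SOX4* and *SOX9* the sum was 37.2 ± 2.47 and 22.8 ± 0.0835 TPM, so that the shPAX2 mean was 61.4% of the shEV mean (SD, n = 3 each). This sum rests on the 4 members already described as lower without overlap, so its direction is fixed by them and no test is given.

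The table listed 5 further SOX genes, of which 1 was tested. *SOX18*, a group F gene of blood and lymph vessel formation, stood at 1.53, 1.46 and 0.714 TPM in shEV and at 1.69, 1.83 and 1.86 TPM in shPAX2, from 11 to 44 reads. It was the only tested SOX gene with a value above 0, at 0.44 (SE 0.21), and its adjusted p in limma was 0.116. Without shEV replicate 3, the library at 0.714 TPM, the value was 0.20 (adjusted p 0.33 in limma). It passed only under quantile normalization (0.70, adjusted p 0.0319 in limma, range over the alternatives 0.0319 to 0.33). *SOX7*, *SOX10*, *SOX15* and *SOX30* had at most 7 reads in any library. *SOX2-OT*, the noncoding gene that overlaps *SOX2*, had 1 read in 1 library.

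Genes whose levels across the 6 libraries were most like those of *SOX4* were *FAM127A* (r = 0.997), *SLC25A36* (r = 0.9929) and *PFKFB4* (r = 0.9904). These are Pearson correlations of log2(TPM + 0.5) over 10528 candidates, given as a description, and the 6 libraries share their group structure and depth. *PFKFB4*, which encodes a regulator of glycolysis, stood at 11.6, 20.4 and 39.6 TPM in shEV and at 12.8, 10.1 and 9.75 TPM in shPAX2. Like *SOX4* and *SOX9*, it was highest in shEV replicate 3.

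Other proteins with an HMG box were taken next. The counts of this and the following lists stand against 30.5% of all tested genes lower and 12.2% higher by the same rule, and the lists are short. Among factors that read specific sequences, 6 of 7 listed genes were tested, 3 were lower and 0 higher at an adjusted p under 0.05 in limma, and the median log2 fold change was -0.31. *HBP1*, a repressor of cell cycle and Wnt target genes, stood at 37.9, 39.2 and 46.6 TPM in shEV and at 16.5, 14.7 and 15.6 TPM in shPAX2. These groups were far apart, with a log2 fold change of -1.37 (SE 0.09, adjusted p 8.81e-06 in limma). *TCF7* and *BBX* also fell, by 0.35 and 0.41 on the log2 scale, and were named after their values were seen. Among 16 tested HMG-box proteins without sequence preference, 2 were higher and 3 lower, with a median of -0.09. *HMGB2*, a chromatin protein of dividing cells, was the highest at 0.64 and *HMG20B*, a subunit of a histone demethylase complex, the lowest at -0.70. Both were also named after their values were seen.

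Partners and reported targets of the SOX proteins went both ways. Of the *SOX2* partners and pluripotency genes, 10 of 13 listed were tested, 2 were higher and 4 lower, and the median was -0.31. *LIN28A*, an RNA-binding inhibitor of let-7 maturation, rose from 0.278, 0.254 and 0.441 TPM in shEV to 3.40, 6.97 and 6.59 TPM in shPAX2 (log2 fold change 2.85, SE 0.25, adjusted p 5.85e-05 in limma). Its paralog *LIN28B*, on chromosome 6, rose by 1.11 on the log2 scale (adjusted p 4.24e-05 in limma), which is 0.72 above the median of that chromosome. *CHD7*, a chromatin remodeller that binds SOX2, fell from 22.5, 24.9 and 26.3 TPM to 7.92, 10.4 and 10.7 TPM (log2 fold change -1.31, adjusted p 5.33e-05 in limma). For all 3 genes the groups did not overlap.

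Of the genes reported as *SOX4* and *SOX11* targets, 8 of 9 listed were tested, with 3 higher, 3 lower and a median of -0.05. *EGFR*, the epidermal growth factor receptor, stood at 5.87, 5.51 and 6.22 TPM in shEV and at 20.2, 20.2 and 22.3 TPM in shPAX2 (log2 fold change 1.75, SE 0.08, adjusted p 9.96e-07 in limma). The Notch ligand *DLL1*, also on chromosome 6, rose by 1.17 on the log2 scale (adjusted p 0.00149 in limma, 10 to 110 reads per library). *TUBB3*, a neuronal tubulin, rose by 0.38, while *TEAD2*, a Hippo pathway factor, and *MEX3A* fell by 0.55 and 0.42 on the log2 scale. These last 3 were named after their values were seen. The levels of the list summed to 766 to 796 TPM in shEV and 761 to 783 TPM in shPAX2.

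Among cartilage genes bound by *SOX5*, *SOX6* and *SOX9*, only 5 of 12 listed were expressed enough to test, and none passed the fold threshold. At an adjusted p under 0.05 in limma 3 were lower and 0 higher, where 30.5% of all tested genes were lower, and the median was -0.59 against -0.10 over all genes. They were *CHST11*, a chondroitin sulfotransferase (-0.93), and the collagens *COL27A1* (-0.71) and *COL9A3* (-0.59), named after their values were seen. *COL9A3* had only 7 to 24 reads per library. The summed level of the list was 32.4 to 34.8 TPM in shEV and 24.0 to 24.8 TPM in shPAX2. In the glial and gonadal list 1 of 4 tested genes was lower (*MITF*, a melanocyte factor, -0.49, named after its value was seen) and 0 higher, with a median of -0.15.

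Of the *SOX17* partners and targets, 3 of 10 listed were tested, with a median of -0.31, and 1 passed. *FOXA1*, a pioneer factor of gland epithelium, fell from 6.50, 5.99 and 7.96 TPM in shEV to 2.69, 2.44 and 2.09 TPM in shPAX2 (log2 fold change -1.33, SE 0.13, adjusted p 0.000106 in limma). Among the 5 tested beta-catenin partners and targets 2 were lower (*AXIN2* at -0.73 and *TCF7*) and 0 higher, with a median of -0.11. *AXIN2*, a negative regulator of Wnt signalling, had only 15 to 41 reads per library and was named after its value was seen. Among 13 regulators of SOX proteins, all of them tested, 4 were higher and 3 lower, with a median of -0.10. *SETD7*, a lysine methyltransferase reported to act on SOX2, fell from 8.42, 8.15 and 9.06 TPM to 2.97, 3.11 and 3.33 TPM (log2 fold change -1.31, SE 0.10, adjusted p 1.75e-05 in limma).

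**Figure D4:**
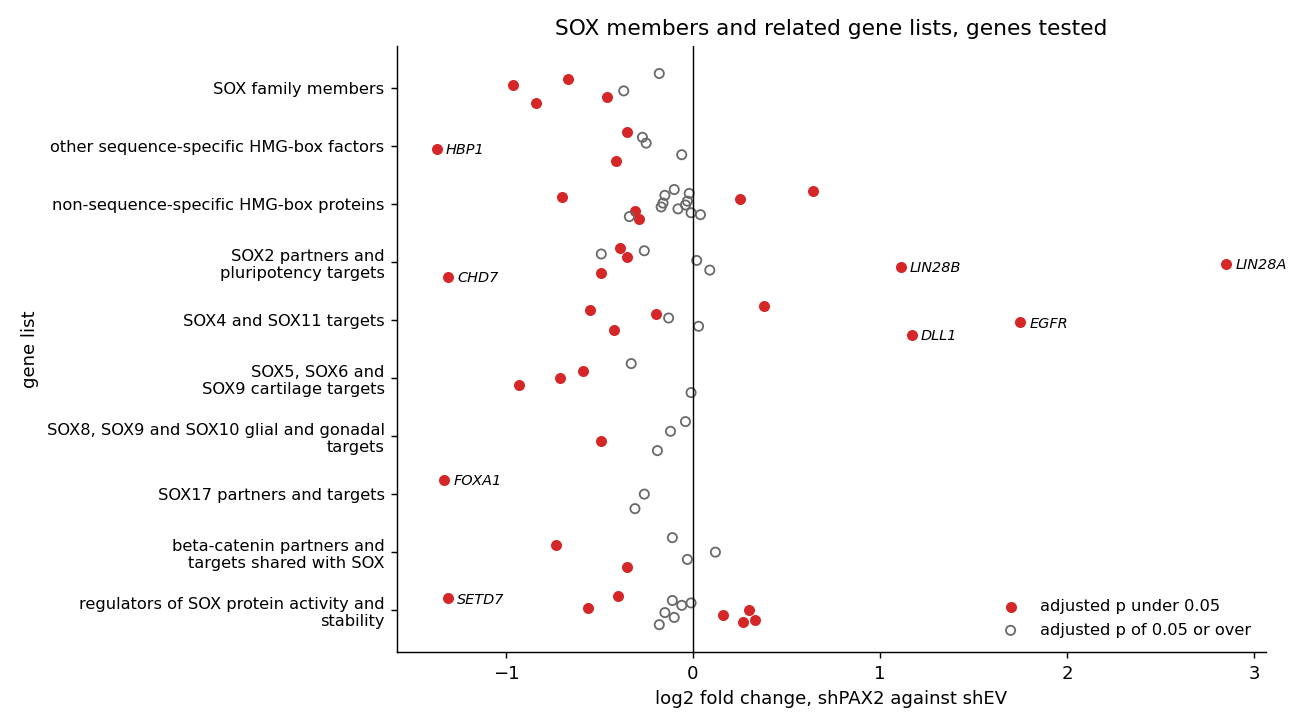
Log2 fold change of shPAX2 against shEV (horizontal axis) for each tested gene of the SOX family and of 9 related lists (vertical axis), filled red where the adjusted p was under 0.05 and open otherwise. All 6 SOX members lie left of 0, and genes past both thresholds are named, among them *HBP1* at -1.37 and *LIN28A* at 2.85.

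Markers of other cell types were checked in the same libraries. Endothelial markers summed to at most 0.0611 TPM, and *PTPRC*, the pan-leukocyte marker, had at most 1 read in a library. *CD68*, a macrophage and lysosome marker and the only immune marker tested, stood at 1.20, 1.52 and 0.835 TPM in shEV and at 1.58, 2.28 and 2.21 TPM in shPAX2. Its groups did not overlap, and it rose by 0.59 on the log2 scale (adjusted p 0.0359 in limma). Among neural markers, *SYP*, a synaptic vesicle protein, rose by 2.56 on the log2 scale (adjusted p 2.87e-07 in limma), while *RBFOX3*, a marker of mature neurons, had at most 1 read in a library. Of 9 listed mesenchymal or stromal markers, *ACTA2* rose by 2.16 and *COL1A2* changed by -1.11 on the log2 scale (adjusted p 0.000824 and 1.75e-05 in limma). The part of these markers in the SOX results was not tested.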

How the data were processed

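The authors deposited TPM values per gene symbol for 6 libraries. The submitters' processing notes name STAR, Subread, featureCounts and edgeR with hg19, and give no versions or roles. Libraries were stranded total RNA, per the labels. The study's RNA-Seq methods describe Ishikawa, another endometrial cancer line.

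Within each gene the deposited TPM values were fitted by ratios of whole numbers (largest relative deviation 7.15e-14). The search ran until the ratios fitted, so this small deviation carries little weight. Whole reads were recovered from the ratios, up to 1 factor per gene. In simulated data with known reads, 95.2% of 1937 genes were recovered exactly. A gene seen in only 1 library is always given 1 read, as for *SOX2*, *SOX2-OT*, *KRT7*, *PTPRC* and *RBFOX3*. Floors (3 reads) and read numbers cover counting error only.

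Genes that reached 0.5 TPM in 3 or more of the libraries entered the fit, made with limma 3.58.1 in R 4.3.3 (trend and robust moderation) on log2(TPM + 0.5), shPAX2 against shEV, two-sided, with Benjamini-Hochberg adjustment over 13163 genes. Fold changes on this scale understate those of low genes. Exact permutation tests used SciPy 1.17.1. In reads simulated for this comparison, 200 genes were changed, none of them with few reads, and 13112 genes were tested. At an adjusted p under 0.05 without the fold threshold, the fit recovered 84% of 2-fold and 92% of 4-fold changes. Of these calls, 6.4% were unchanged genes. In the data far more genes passed without a fold threshold (5629), so these shares need not hold for them or for genes with few reads.

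Positions came from GENCODE release 44 on GRCh37 (94.8% of symbols matched) and promoters from RefSeq. Named were all members, *PAX2*, the tested neighbours of *SOX4* and, from each list, up to 4 genes past both thresholds (adjusted p under 0.05, absolute log2 fold change of at least 1). Further genes were named after their values were seen, as stated. The genes most like *SOX4* were the 3 of highest correlation among those with a mean of at least 5 TPM. Members and lists were chosen with earlier results of these data known.

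Alternatives were other pseudocounts (0.1 and 1), filters, scalings, moderation and thresholds, voom, the replicate block, and fits without 1 library.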

Additional observations from a re-analysis of the deposited data

How the results depend on the processing

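*SOX6*, *SOX8*, *SOX12* and *SOX13* were lower at an adjusted p under 0.05 in limma in each of 15 alternative fits (log2 fold changes of -0.73 to -0.44, -1.03 to -0.73, -0.54 to -0.29 and -0.92 to -0.59), and *PAX2* likewise (-1.87 to -1.20). The number of members past both thresholds, 0, became 1 (*SOX8*) with a pseudocount of 0.1, with voom and without shPAX2 replicate 1, and 4 with no fold threshold. Without 1 library it ran from 0 to 1. The count over all genes (598) became 5629 with no fold threshold and 484 to 610 without 1 library. Quantile normalization gave 293 lower of 533 calls, against 410 of 598. The higher calls, 188, were 100 without shPAX2 replicate 2 and 104 without shPAX2 replicate 3. The *SOX4* difference from chromosome 6, -0.57, was -0.41 with no filter, -0.72 under quantile normalization, -0.37 within 5 Mb and -0.67 to -0.49 without 1 library, and the cause was not tested. The *SOX4* share gained 4.32 percentage points (4.11 to 4.69 without 1 library).

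Same-numbered libraries did not deviate together (correlations -0.0523, 0.0815 and 0.0014). With the replicate block 588 genes and 0 members passed both thresholds, and the same 4 members had an adjusted p under 0.05. Depth limits *SOX2* and *SOX11*.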
